A study of Mus musculus with 20 samples.

Results

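The miR-183, miR-96 and miR-182 cluster was followed through 4 groups of mouse skin. Its members are the mature miRNAs of the deposited count table whose names begin with mmu-miR-183-, mmu-miR-96- or mmu-miR-182-, whichever arm of the precursor they come from. The rule found 6 members among 1137 mature miRNAs and 2127 small RNA features: mmu-miR-183-5p, mmu-miR-96-5p and mmu-miR-182-5p, and the 3p arm of each. All 6 were tested, since all 6 passed the low-count filter that left 850 miRNAs. The samples were biopsies of skin from the inbred, albino mouse strain FVB/N. Healthy skin had been treated with acetone. The other groups came from skin treated with DMBA, a mutagen that starts skin tumours, and PMA, a phorbol ester that promotes them, and were labelled hyperplastic skin, papilloma (a benign tumour) and cutaneous squamous cell carcinoma (cSCC). Each group had 5 libraries, named below by group and by the number in the sample title. The sources used here give no age, sex, dose or time of treatment. Whether the 5 biopsies of a group are from 5 mice is not stated in the labels, and p-values here speak only of the spread between libraries. Against healthy skin, treatment and lesion change together and cannot be told apart.

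A miRNA is cut from a hairpin in a longer transcript, first by Drosha in the nucleus and then by Dicer in the cytoplasm. In most hairpins the strand of one arm is loaded into an Argonaute protein and guides it to messenger RNAs, mainly through the seed near its 5′ end, while the strand of the other arm is mostly degraded. The hairpins of miR-183, miR-96 and miR-182 lie close together and are known to be made from a shared primary transcript. The cluster is best known from sensory cells, such as hair cells of the inner ear, photoreceptors and sensory neurons, and changes in the seed of miR-96 cause hearing loss in mice and people. It is also often raised in carcinomas, where FOXO transcription factors are among the studied targets of miR-182 and miR-96.

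The mature sequences show how alike the abundant arms are. They come from RefSeq (build GRCm38.p6), which matched 6 of 6 members, and capitals mark the seed, bases 2 to 8.
mmu-miR-183-5p: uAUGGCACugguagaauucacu
mmu-miR-96-5p: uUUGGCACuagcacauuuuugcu
mmu-miR-182-5p: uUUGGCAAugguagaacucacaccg
All 3 5p seeds hold the run UGGCA at bases 3 to 7 of the miRNA, but no pair has the same seed. Outside the seed miR-183-5p and miR-182-5p remain close. Aligned from the first base without gaps they match at 18 of 22 places, and after base 8 at 12 of 14. miR-183-5p and miR-96-5p match at 13 of 22 places, and miR-96-5p and miR-182-5p at 12 of 23. Reads of miR-183-5p and miR-182-5p that carry errors could thus be exchanged, and the sources used here do not say how reads with several matches were treated.

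The 3p arms are shown because they differ from each other and from the 5p arms, so that reads of 1 arm are unlike those of the others.
mmu-miR-183-3p: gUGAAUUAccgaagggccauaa
mmu-miR-96-3p: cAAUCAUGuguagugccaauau
mmu-miR-182-3p: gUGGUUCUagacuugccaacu
No other miRNA in the count table had the seed of any member. In RefSeq the seed of miR-96-5p is shared with mmu-miR-1271-5p and that of miR-96-3p with mmu-miR-3475-5p, which were not analysed here.

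The hairpins show where the arms shown above lie, in capitals, in the RefSeq precursors of GRCm38.p6.
Mir183: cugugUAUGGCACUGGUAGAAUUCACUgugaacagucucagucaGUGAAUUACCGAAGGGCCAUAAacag
Mir96: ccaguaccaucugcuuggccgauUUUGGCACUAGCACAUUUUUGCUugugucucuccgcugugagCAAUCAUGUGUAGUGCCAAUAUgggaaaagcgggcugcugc
Mir182: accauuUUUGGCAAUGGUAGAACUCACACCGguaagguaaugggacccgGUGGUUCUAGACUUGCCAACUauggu
In the deposited table, whose build is mm9 per the submitters' processing notes, the 6 arms lie on chromosome 6 within chr6:30115922-30119733, a span of 3812 bases. miR-183-5p is listed at chr6:30119710-30119733, miR-96-5p at chr6:30119505-30119529 and miR-182-5p at chr6:30115961-30115987. The nearest listed arms of miR-96 and miR-182 are 3476 bases apart, while miR-183 lies next to miR-96, with miR-183-3p listed at chr6:30119671-30119694. RefSeq puts the 3 hairpins on the minus strand. In the GENCODE annotation of GRCm38 no other gene overlaps them. The nearest genes are Nrf1, on the plus strand at lower coordinates, and the long intergenic RNA gene Rncr4, on the plus strand at higher coordinates, with Ube2h the nearest protein-coding gene on that side.

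The library totals lay between 1270588 and 10117810 counts, and the counts of mature miRNAs between 1060615 and 6904298. Papilloma and cSCC libraries, with at most 2903657 miRNA counts, were mostly shallower than those of healthy and hyperplastic skin, with at least 2884177. The sum of the 590 rarest miRNAs, those averaging 20 counts or fewer, did not follow these totals. It was 4637 ± 913 counts in cSCC, 4649 ± 530 in papilloma, 4732 ± 1370 in hyperplastic and 3698 ± 350 in healthy skin (SD, n = 5 each), and single libraries ran from 3226 to 6911. Their share of the miRNA counts was 0.0948% in healthy skin and 0.289% in papilloma. Levels below are CPM, read counts scaled to the size of the library with edgeR's TMM factors, which are estimated over the 850 tested miRNAs. Each fold change of an abundant arm is given from the fit of all 850 and from a fit of the 294 abundant miRNAs with a mean of at least 50 CPM, because the scalings differ. Against healthy skin the first lies lower by a median log2 value of 0.72 in cSCC, 0.66 in papilloma and 0.09 in hyperplastic skin. Against hyperplastic skin it lies lower by 0.57 for papilloma and 0.63 for cSCC, and for cSCC against papilloma by 0.06.

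In skin the cluster was made up mainly of miR-182-5p. By mean count over the 20 libraries miR-182-5p ranked 83rd among 1137 miRNAs, miR-183-5p ranked 120th, miR-96-5p 230th and miR-183-3p 257th. miR-182-3p and miR-96-3p ranked 578th and 595th, with means of 17.5 and 16.4 counts. Both thus belong to the low-count miRNAs described above. Of the cluster's counts in healthy skin, miR-182-5p took 63.1%, miR-183-5p 25.9%, miR-96-5p 7.33% and miR-183-3p 3.35% (means of 5 libraries). The order of these 4 arms was the same in the means of hyperplastic skin, papilloma and cSCC. The whole cluster made up 0.233% ± 0.0772 of the miRNA counts in cSCC, against 0.161% ± 0.0126 in papilloma, 0.168% ± 0.0396 in hyperplastic and 0.150% ± 0.0341 in healthy skin (SD, n = 5 each). Levels of different arms are read counts of RNAs of like length, but ligation and size selection can favour 1 sequence over another, so the order among arms describes these libraries.

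**Figure D1:**
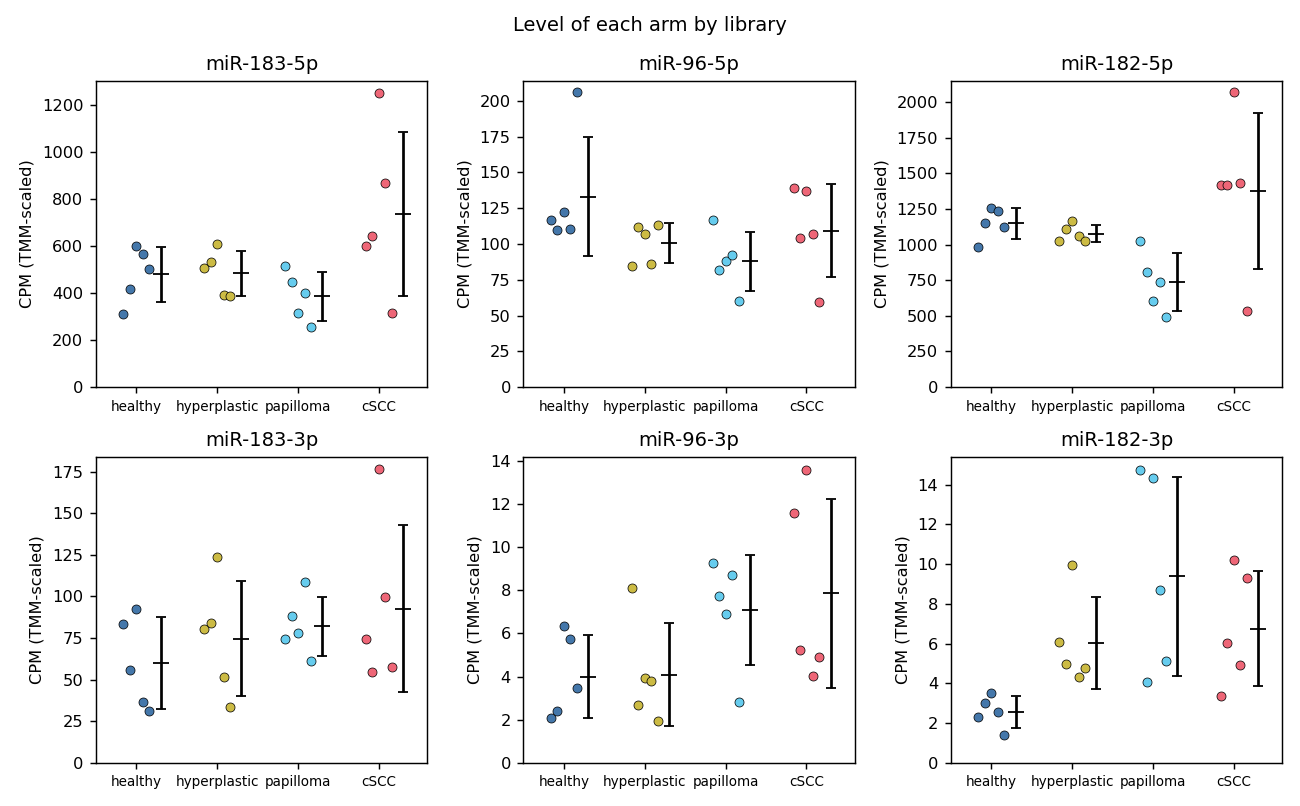
Level of each of the 6 arms in CPM (vertical axes, linear, from 0) in the 20 libraries, with a point per library and the mean ± SD of each group of 5 beside it. miR-182-5p and miR-183-5p were higher in 4 of 5 cSCC libraries than in any papilloma or healthy library, and low in cSCC 6. miR-182-3p was lower in every healthy library than in any hyperplastic or papilloma library.

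Among the abundant 5p arms, miR-182-5p and miR-183-5p were higher in cSCC than in papilloma in both fits. miR-182-5p, the most abundant arm, stood in papilloma at 1028, 805.6, 605.9, 740.0 and 494.4 CPM (papilloma 1, 3, 4, 5 and 6). In cSCC it stood at 1420.2, 1417, 2068, 1434 and 536.2 CPM (cSCC 1, 2, 3, 4 and 6). 4 of the 5 carcinomas lay above every papilloma, and cSCC 6 lay among the lowest papillomas. The group means were 735 ± 203.3 CPM in papilloma and 1375 ± 546 CPM in cSCC (SD, n = 5 each), and the log2 fold change was 0.90 ± 0.27 (SE; edgeR's quasi-likelihood test, Benjamini-Hochberg adjusted p = 0.0260). Among abundant miRNAs it was 0.98 ± 0.23 (adjusted p = 0.00412). These are bulk samples, in which fewer cells of a type and less RNA per cell cannot be told apart.

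miR-183-5p, from the first hairpin of the cluster in the direction of transcription, followed the same libraries. It stood at 515, 447, 313, 401 and 256 CPM in the papillomas, in the order given above. In cSCC the levels were 602, 641, 1252, 868 and 316 CPM. Again 4 carcinomas lay above every papilloma, cSCC 3 was the highest and cSCC 6 lay inside the papilloma range. The means were 386 ± 103 and 736 ± 349 CPM (SD, n = 5 each), with a log2 fold change of 0.93 ± 0.30 (SE, adjusted p = 0.0421), and 0.9996 ± 0.28 among abundant miRNAs (adjusted p = 0.0111).

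miR-96-5p, the third of the 5p arms, did not pass in this comparison. It stood at 117, 81.6, 88.4, 92.3 and 60.1 CPM in papilloma and at 139, 104, 137, 107 and 59.1 CPM in cSCC. The ranges of the groups overlapped, and cSCC 6 was below every papilloma. The log2 fold change was 0.31 ± 0.26 (SE, adjusted p = 0.543) and 0.38 ± 0.23 among abundant miRNAs (adjusted p = 0.293).

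In all, 2 of 6 members passed in cSCC against papilloma, both higher, where 11.5% of the 850 miRNAs passed. Among abundant miRNAs it was the same 2 of 4 members, against 26.2% of 294. The median log2 fold change over all 850 was -0.12. Both calls were lost in some fits that left out 1 library. Each such fit has its own filter, scaling and estimate of the spread, with 859 to 901 miRNAs tested. Without cSCC 3, the highest carcinoma, the log2 fold changes were 0.79 for miR-182-5p (adjusted p = 0.0760) and 0.73 for miR-183-5p (adjusted p = 0.132). Without papilloma 3 both were slightly higher than in the fit of all libraries, at 0.93 (adjusted p = 0.0513) and 0.98 (adjusted p = 0.0678), but missed the threshold. Without cSCC 4 that of miR-183-5p, 0.96 (adjusted p = 0.0625), was also slightly higher and missed it. Without cSCC 6, the low carcinoma, the log2 fold changes of miR-182-5p and miR-183-5p were 1.19 (adjusted p = 0.000962) and 1.20 (adjusted p = 0.00369). A fit of these 2 groups alone gave 0.98 and 0.999 with adjusted p = 0.0566 and 0.0590. That fit also has its own filter, scaling and estimate of the spread.

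cSCC 6 also stood at one end of the carcinomas in some cell type markers. Its summed level of 9 tested members of the miR-200 family, which marks epithelial cells, was 2853 CPM, against 5677 to 9578 CPM in the other carcinomas. With the arms of miR-203 and miR-205 added, 13 tested epithelial arms in all, its sum was 84357 CPM. That lay inside the range of the other carcinomas, 76979 to 145272 CPM. Its sum of 7 leukocyte miRNAs (arms of miR-142, miR-150, miR-155 and miR-223) was 109562 CPM, against 47655 to 79085 CPM. Its miRNA count of 1614803 was the lowest of the group. The part of these in the low cluster level of cSCC 6 was not tested.

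Against healthy skin the direction of the 5p arms in papilloma depended on the scaling. miR-182-5p stood in healthy skin at 984.7, 1149, 1255, 1237 and 1123 CPM (healthy 2, 3, 4, 5 and 7). Papilloma 1 lay inside this range and the other papillomas below it. In the fit of all 850 miRNAs it fell by 0.65 ± 0.27 on the log2 scale (SE, adjusted p = 0.0499). Among abundant miRNAs the log2 fold change was -0.01 ± 0.23 (adjusted p = 0.965), with 891 ± 122 CPM in papilloma and 898 ± 123 CPM in healthy skin on that scale (SD, n = 5 each). Without healthy 3, healthy 5 or healthy 7 the estimates of the first fit were -0.70, -0.70 and -0.73 and missed the threshold (adjusted p = 0.0632, 0.0602 and 0.0524).

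miR-183-5p and miR-96-5p did not pass in papilloma against healthy skin in either fit, and their estimates changed sign with the scaling. miR-183-5p stood at 311, 419, 599.9, 567 and 503 CPM in healthy skin, so that all papillomas but papilloma 6 lay inside the healthy range. Its log2 fold change was -0.31 ± 0.30 (SE, adjusted p = 0.391), and 0.32 ± 0.28 among abundant miRNAs (adjusted p = 0.347). miR-96-5p stood at 116, 109, 122, 111 and 206.4 CPM in healthy skin, where healthy 7 stood far above the other libraries of its group. Papilloma 1 lay inside this range and the other 4 papillomas below it. The log2 fold change was -0.60 ± 0.26 (SE, adjusted p = 0.0672), and 0.06 ± 0.23 among abundant miRNAs (adjusted p = 0.835). Without healthy 7 it was -0.46 (adjusted p = 0.173), while leaving out any 1 of 6 other libraries made it pass, as without healthy 4 (-0.88, adjusted p = 0.0179). Since each such fit has its own filter and scaling, a changed call cannot be laid to the omitted library alone.

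In cSCC against healthy skin no 5p arm passed in the fit of all 850 miRNAs, and 2 of 3 were higher among abundant miRNAs. miR-183-5p had a log2 fold change of 0.62 ± 0.30 (SE, adjusted p = 0.0853), and 1.32 ± 0.28 among abundant miRNAs (adjusted p = 0.000435). That of miR-182-5p was 0.26 ± 0.26 (SE, adjusted p = 0.430), and 0.97 ± 0.23 among abundant miRNAs (adjusted p = 0.00133). For both arms 4 of 5 carcinomas lay above every healthy library by CPM, with cSCC 6 as the exception. For miR-183-5p the margin of cSCC 1 was narrow, at 602.3 CPM against 599.9 CPM in healthy 4. miR-96-5p stood at 109 ± 32.3 CPM in cSCC and 133.03 ± 41.3 CPM in healthy skin (SD, n = 5 each). Its log2 fold change was -0.28 ± 0.26 (SE, adjusted p = 0.380), and 0.44 ± 0.23 among abundant miRNAs (adjusted p = 0.104). Without cSCC 6 miR-183-5p passed among the tested miRNAs too (0.67, adjusted p = 0.0476).

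Between hyperplastic and healthy skin no 5p arm differed beyond the spread of the libraries. miR-182-5p stood at 1027, 1109, 1165, 1061 and 1021 CPM (hyperplastic 1, 2, 5, 7 and 8), all inside the healthy range. The means were 1149.9 ± 108 CPM in healthy and 1077 ± 60.6 CPM in hyperplastic skin (SD, n = 5 each), with a log2 fold change of -0.09 ± 0.26 (SE, adjusted p = 0.953). miR-183-5p, at 505, 533, 609.6, 390.5 and 387 CPM, had a log2 fold change of 0.02 ± 0.30 (SE, adjusted p = 0.985), and all libraries but hyperplastic 5 lay inside the healthy range. miR-96-5p, at 84.8, 112, 107, 86.0 and 114 CPM, had a log2 fold change of -0.40 ± 0.26 (SE, adjusted p = 0.676), with 3 libraries below every healthy one. In this comparison 0 of 6 members passed edgeR's test, as did 0% of the 850 miRNAs and 0% of the 294. One member, miR-182-3p, had an unadjusted p under 0.05, and DESeq2 also called 0 members.

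Hyperplastic skin was also treated with DMBA and PMA, and whether dose and time matched those of the tumours is not given. Compared with it, 0 of 6 members passed in papilloma and 0 of 6 in cSCC. Over all 850 miRNAs 38.4% and 44.9% passed. The log2 fold changes in papilloma were -0.55 ± 0.27 for miR-182-5p (SE, adjusted p = 0.103), -0.33 ± 0.30 for miR-183-5p and -0.19 ± 0.26 for miR-96-5p. Among abundant miRNAs 0 of 4 members passed in papilloma, against 28.2% of 294, and the estimates were -0.01, 0.20 and 0.37. In cSCC the log2 fold change was 0.35 ± 0.26 for miR-182-5p, 0.60 ± 0.30 for miR-183-5p and 0.12 ± 0.26 for miR-96-5p (SE, adjusted p = 0.284, 0.0981 and 0.731). Among abundant miRNAs all 3 5p arms were higher in cSCC, by 0.98, 1.20 and 0.75 (adjusted p = 0.00151, 0.00120 and 0.0113), where 50.3% of 294 passed.

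**Figure D2:**
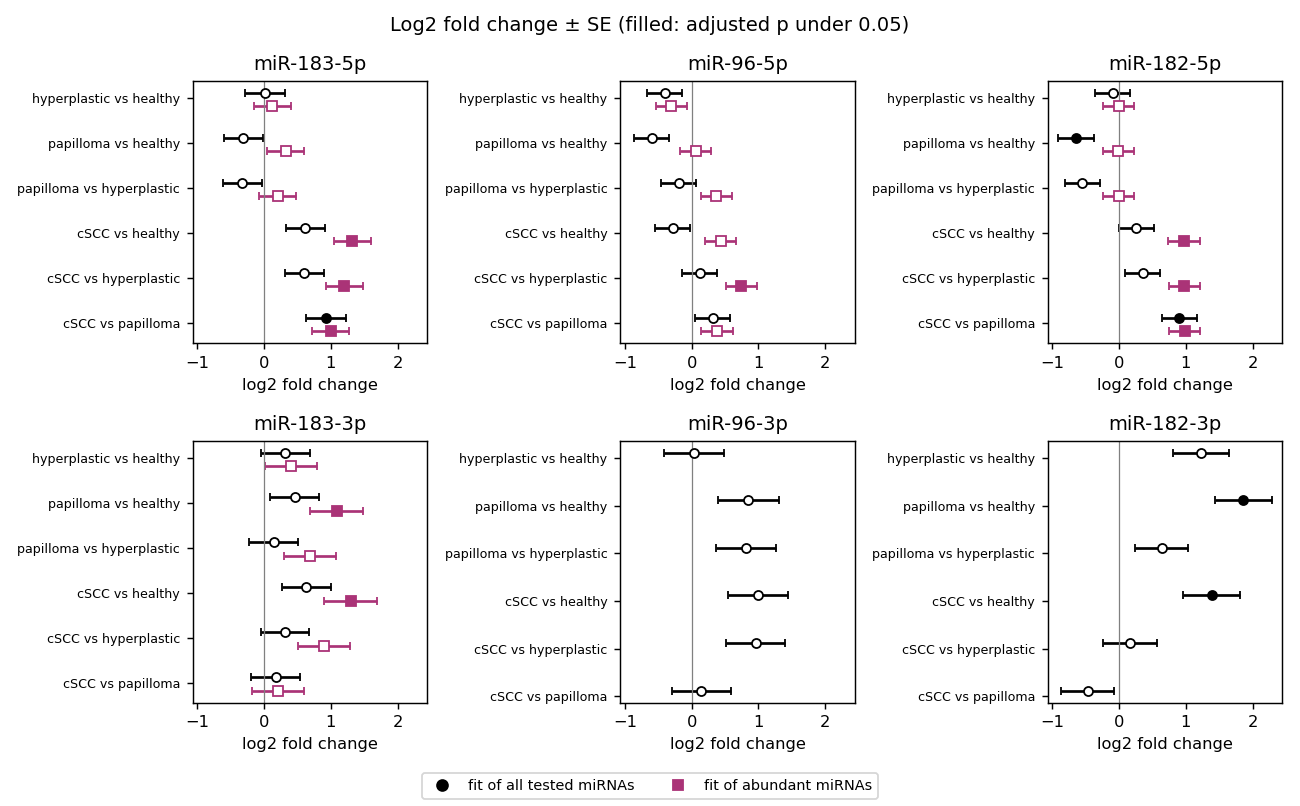
Log2 fold change ± SE (horizontal axes) of each arm in the 6 pairs of groups, from the fit of all 850 tested miRNAs (circles) and of the 294 abundant ones (squares), filled where the adjusted p was under 0.05. For cSCC against papilloma the 2 fits lay close together (0.90 and 0.98 for miR-182-5p), while against healthy skin the squares lay to the right of the circles.

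The 3p arms, the strands that were rarer here in each hairpin, are described apart. miR-182-3p, the minor arm of the most abundant hairpin, had raw counts of 9, 10, 10, 8 and 4 in the healthy libraries. Hyperplastic skin gave 21, 26, 38, 23 and 15 counts. In papilloma it had 35, 10, 25, 25 and 9 counts, and in cSCC 9, 15, 27, 11 and 19. Every hyperplastic library had more counts than any healthy one. Scaled by depth the means were 9.40 ± 5.01 CPM in papilloma, 6.76 ± 2.90 in cSCC, 6.03 ± 2.30 in hyperplastic and 2.55 ± 0.798 in healthy skin (SD, n = 5 each).

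By these levels every hyperplastic and every papilloma library lay above every healthy one, and cSCC 1 alone among the carcinomas lay within the healthy range. miR-182-3p rose in papilloma by a log2 value of 1.86 ± 0.43 (SE, adjusted p = 0.00143) and in cSCC by 1.39 ± 0.43 (SE, adjusted p = 0.00983). Without cSCC 6 the latter was 1.11 (adjusted p = 0.0535). In hyperplastic skin the log2 fold change was 1.22 ± 0.42 (SE, adjusted p = 0.442). miR-182-3p is one of the low-count miRNAs whose share of counts was greater in the shallower papilloma libraries, and the part of depth in its calls was not tested. The hyperplastic libraries held 3142228 to 6904298 miRNA counts and 3226 to 6911 counts of the low-count miRNAs, against 2884177 to 4921719 and 3293 to 4228 in healthy skin.

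miR-183-3p, the minor arm of miR-183, lay between 54.7 and 177 CPM in cSCC, 61.2 and 109 in papilloma, 33.3 and 123 in hyperplastic skin, and 31.1 and 92.7 in healthy skin. All groups overlapped. Its log2 fold change against healthy skin was 0.45 ± 0.37 in papilloma and 0.63 ± 0.37 in cSCC (SE, adjusted p = 0.313 and 0.155). Among abundant miRNAs it was higher in both, by 1.09 ± 0.40 (adjusted p = 0.0280) and 1.30 ± 0.40 (adjusted p = 0.00774). miR-96-3p, with 5 to 36 counts per library, passed in no comparison. Its largest log2 fold change was 0.996 ± 0.45 in cSCC against healthy skin (SE, adjusted p = 0.0688).

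Counted over the members, 2 of 6 passed in papilloma against healthy skin, miR-182-3p higher and miR-182-5p lower, where 44.7% of the 850 miRNAs passed. In cSCC against healthy skin it was 1 of 6, miR-182-3p, where 47.5% passed. Among abundant miRNAs 1 of 4 members was higher in papilloma and 3 of 4 in cSCC, against 51.4% and 62.6% of 294. In the test across the 4 groups at once 3 of 6 members passed, miR-182-5p (adjusted p = 0.0367), miR-183-5p (adjusted p = 0.0483) and miR-182-3p (adjusted p = 0.00579), where 56% of the 850 passed. These comparisons share groups, so their counts are not independent. Over all 850 the median log2 fold change against healthy skin was 0.40 in papilloma and 0.35 in cSCC.

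The 5p arms varied together from library to library. Across the 20 libraries the log2 CPM of miR-183-5p and miR-182-5p had a Pearson correlation of 0.88, and of 0.89 after the group means were subtracted. For miR-96-5p with miR-182-5p it was 0.72 and 0.73, and for miR-183-5p with miR-96-5p 0.55 and 0.63. The abundant 3p arm, miR-183-3p, had 0.20 and 0.39 with miR-182-5p, and -0.09 and 0.10 with miR-96-5p. The points share each library's depth and scaling factor, so these values describe the libraries and carry no test. For the arms of 1 hairpin the value was 0.43, and 0.50 with group means subtracted, for miR-183. It was 0.06 and 0.33 for miR-96, and -0.23 and 0.06 for miR-182, where the sign changed. The minor arms of miR-96 and miR-182 rest on few counts.

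**Figure D3:**
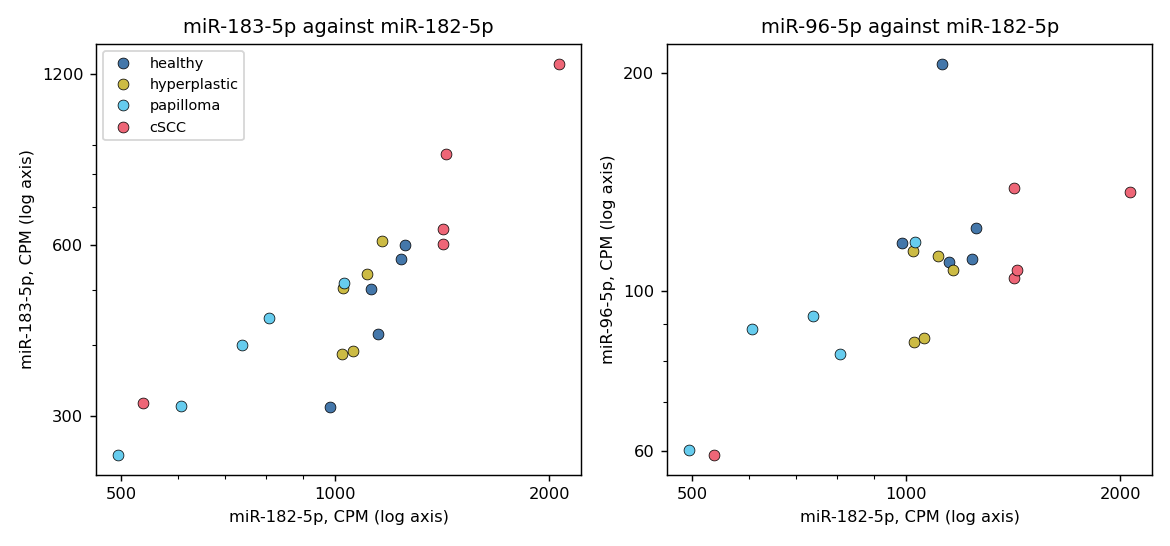
Levels of miR-183-5p (left) and miR-96-5p (right) against miR-182-5p, in CPM on log axes, with 1 point per library coloured by group. cSCC 6 and papilloma 6 lie at the low end of all 3 arms and cSCC 3 at the high end of miR-183-5p and miR-182-5p, and healthy 7, at 206.4 CPM, stands above the others for miR-96-5p.

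Ratios of counts within a library need no scaling factor, and 6 ratios were compared over the 6 pairs of groups. A ratio to a low-count arm can still vary with depth. With 5 libraries against 5 the smallest two-sided p of the exact permutation test is 0.00794. Tests at this p alone give an adjusted p under 0.05 only if at least 6 of the 36 reach it. It was reached by 5, and over the whole set of p-values 0 of 36 passed. These 5 had an adjusted p of 0.0571.

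The balance between the 2 most abundant arms did not differ detectably between papilloma and cSCC. The count of miR-183-5p per count of miR-182-5p was 0.529 in cSCC, 0.526 in papilloma, 0.444 in hyperplastic and 0.408 in healthy skin (geometric means of 5 libraries). Every papilloma, at 0.501 to 0.555, lay above every healthy library, at 0.316 to 0.478. The difference in log2 ratio was 0.37 ± 0.12 (SE; exact permutation test, p = 0.00794, adjusted p = 0.0571). Between cSCC and papilloma it was 0.01 ± 0.12 (exact permutation test, p = 0.960), less than the spread of the libraries. miR-96-5p per count of miR-182-5p stood at 0.121 in papilloma and 0.0830 in cSCC, a log2 difference of -0.54 ± 0.16 (SE; exact permutation test, p = 0.0159, adjusted p = 0.0635).

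The ratio of the arms of miR-182 was the one that differed most. There were 440 counts of the 5p arm per count of the 3p arm in healthy skin, against 183.1 in hyperplastic skin, 195 in cSCC and 83.7 in papilloma (geometric means of 5 libraries, 0.5 added to each count). Healthy libraries lay at 340 to 723, hyperplastic ones at 115 to 239 and papillomas at 41.4 to 188. Neither hyperplastic skin nor papilloma overlapped with healthy skin. The 3p arm has 4 to 38 counts per library and belongs to the low-count miRNAs, whose share of counts was greater in the shallower papilloma libraries, and the part of depth in this ratio was not tested. The log2 differences were -1.27 ± 0.27 and -2.40 ± 0.40 (SE; exact permutation test, p = 0.00794 and adjusted p = 0.0571 for both). For miR-183 the ratio was 8.51 in healthy skin, 4.64 in papilloma and 7.94 in cSCC, and cSCC and papilloma differed by a log2 value of 0.78 ± 0.24 (SE; exact permutation test, p = 0.0159, adjusted p = 0.0635).

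**Figure D4:**
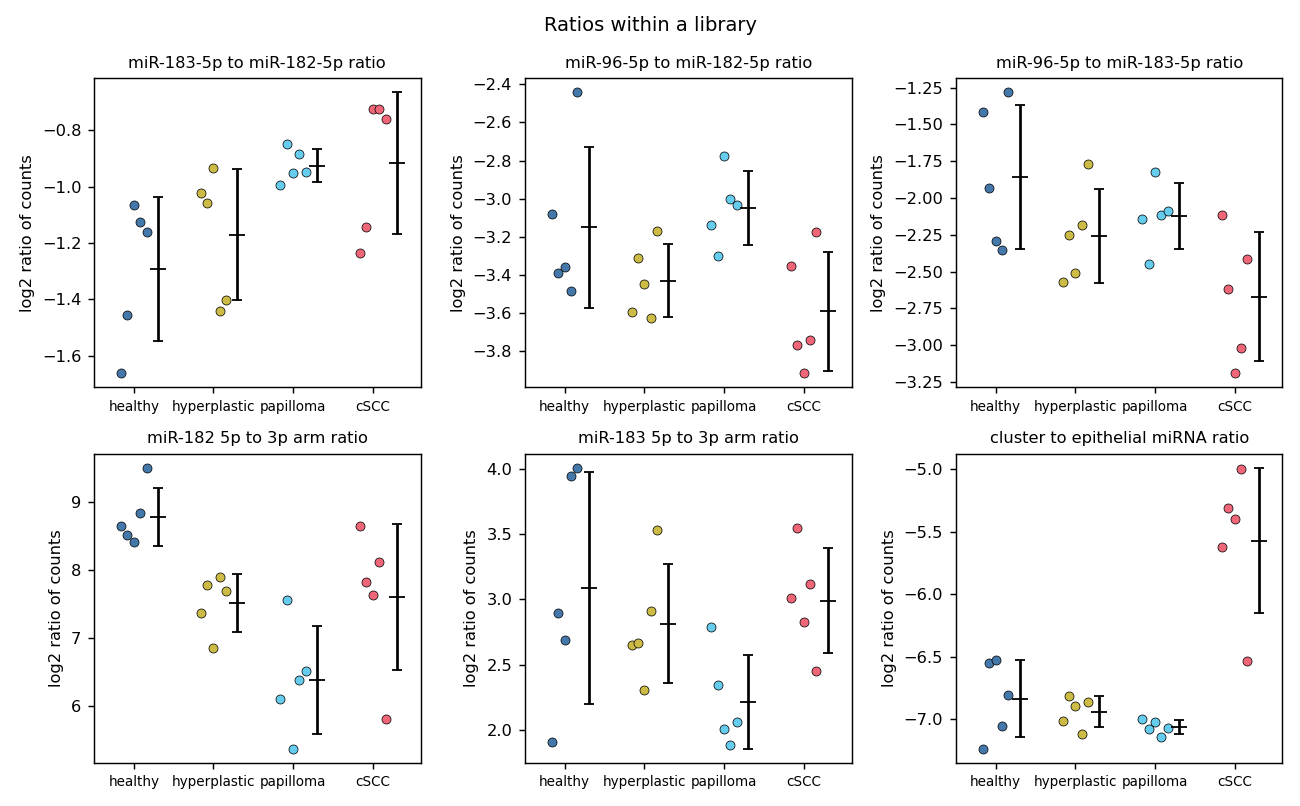
Log2 ratios of counts within a library (vertical axes, not from 0) for 5 pairs of arms and for the summed 5p arms over the epithelial miRNAs, with a point per library and the mean ± SD of each group of 5. The ratio of the arms of miR-182 was lower in every hyperplastic and papilloma library than in any healthy one, and 4 carcinomas stood above all other libraries in the ratio to epithelial miRNAs, with cSCC 6 at the upper edge of healthy skin.

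The cluster was also set against epithelial miRNAs, since skin biopsies differ in how much epithelium they hold. The epithelial list holds 14 arms of the miR-200 family (miR-200a, miR-200b, miR-200c, miR-141 and miR-429) and of miR-203 and miR-205, which mark keratinocytes. The summed 5p arms of the cluster per summed count of this list came to 0.0210 in cSCC, against 0.00748 in papilloma, 0.00816 in hyperplastic and 0.00877 in healthy skin (geometric means of 5 libraries). The papillomas lay between 0.00707 and 0.00782, and the carcinomas at 0.0203, 0.0252, 0.0238, 0.0313 and 0.0108. Every carcinoma thus lay above every papilloma. The log2 difference was 1.49 ± 0.26 against papilloma and 1.37 ± 0.27 against hyperplastic skin (SE; exact permutation test, p = 0.00794 and adjusted p = 0.0571 for both). Against healthy skin it was 1.26 ± 0.29 (SE; exact permutation test, p = 0.0159, adjusted p = 0.0635), with cSCC 6 inside the healthy range.

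The denominator moved too. The summed level of 13 tested members of the epithelial list lay between 76979 and 145272 CPM in cSCC, 108585 and 212355 CPM in papilloma, and 156998 and 254058 CPM in healthy skin. In cSCC against papilloma 2 of these 13 fell, both arms of miR-203, and 0 rose, a share near the 11.5% of all 850 that passed. The major arm, miR-203-3p, a brake on p63 as keratinocytes differentiate, fell by 1.59 ± 0.26 on the log2 scale (SE, adjusted p = 0.000279). Of the 9 tested members of the miR-200 family 0 passed in cSCC against papilloma in either direction. In cSCC 2 of 9 fell against healthy skin and 1 of 9 against hyperplastic skin, and 0 rose. Over all 850 miRNAs 47.5% and 44.9% passed there. Among abundant miRNAs 2 of 8 rose and 1 fell in each. The summed miR-200 level was 2853 to 9578 CPM in cSCC. It was higher in every healthy (10033 to 12939 CPM) and hyperplastic library (10321 to 13041 CPM). With miR-205-5p alone as denominator the log2 difference between cSCC and papilloma was 1.16 (exact permutation test, adjusted p = 0.0714). With the miR-200 family alone it was 0.92, and 1.01 against healthy skin and 1.12 against hyperplastic skin (exact permutation test, p = 0.00794 and adjusted p = 0.0476 for all 3), with every carcinoma above every library of the other groups. This is again the smallest p of the test, and the adjusted p is lower because more of the 36 tests reached it. Without cSCC 6 the difference to papilloma was 1.73 with the whole list (exact permutation test, adjusted p = 0.0408). cSCC 6 was singled out from these same data, and this adjusted p too depends on how many tests reach the smallest p.

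Markers of other cells moved between these groups as well. The 7 tested leukocyte arms summed to between 47655 and 109562 CPM in cSCC, 14935 and 60627 CPM in papilloma, and 18609 and 35878 CPM in healthy skin. Most counts of this list were of miR-223-3p, with a mean of 81630 per library, and miR-150-5p came next with 8445. In cSCC against healthy skin 1 of the 7 rose and 1 fell, where 47.5% of the 850 passed. The median log2 fold change of the 7 was -0.00447 there. In cSCC against papilloma, where 11.5% of the 850 miRNAs passed, 2 of 7 rose and 0 fell. The 3 tested melanocyte arms (miR-204 and miR-211) summed to between 219.2 and 872 CPM in papilloma and 68.4 and 150.3 CPM in cSCC, where 2 of 3 fell. The neural list, chosen because the cluster is a sensory one, holds 15 arms of miR-9, miR-124, miR-128, miR-129, miR-153 and miR-219. The 9 that were tested summed to between 138 and 192 CPM in papilloma and 88.0 and 174 CPM in cSCC, and 0 of 9 passed in either direction. The median log2 fold change of these 9 was 0.26. Of 13 arms listed for fibroblasts and mesenchyme (miR-29, miR-199 and miR-214) 2 rose in cSCC against papilloma and 0 fell, a share near the 11.5% of all 850. Among abundant miRNAs 2 of 11 rose and 1 fell, against 26.2% of 294. miR-29a-3p had the most counts of this list, with a mean of 356492 per library. None of the tested markers was at 0 in all libraries, which the low-count filter ensures. The part of these cell types in the level of the cluster was not tested.

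The miRNAs most like the cluster were sought among 290 other miRNAs with a mean of at least 50 CPM, by the Pearson correlation of log2 CPM over 20 libraries with the mean of the 3 5p arms. The first 5 were miR-130a-5p (0.70), miR-17-5p (0.65), miR-19b-3p (0.64), miR-200a-5p (0.64) and miR-130a-3p (0.63), where the median over the 290 was 0.0961. With group means subtracted the values were 0.60, 0.80, 0.68, 0.63 and 0.44. The order depended on the scaling: with the scaling of abundant miRNAs the values were 0.73, 0.80, 0.77, 0.74 and 0.60, and miR-130b-3p (0.76) and miR-2137 (0.75), named after their values were seen, stood above miR-130a-5p. Of these, miR-130a-3p passed in cSCC against papilloma, as miR-182-5p and miR-183-5p did, with 3671 ± 471 and 7033 ± 2196 CPM (SD, n = 5 each; log2 fold change 0.94 ± 0.25, SE, adjusted p = 0.0132). The other 4 did not pass there, with log2 fold changes of 0.71 for miR-130a-5p, 0.22 for miR-17-5p, 0.43 for miR-19b-3p and 0.51 for miR-200a-5p. These correlations share depth and scaling factors and are a description with no test.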

How the data were processed

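Small RNA of 20 skin biopsies was sequenced on the Applied Biosystems SOLiD system. Per the labels' protocols, a Qiagen miRNeasy mini kit gave the RNA, and libraries from the NEBNext small RNA set for SOLiD were selected by size on acrylamide gels. The authors deposited a table of raw read counts per small RNA feature, not normalized. The build is mm9 per the submitters' processing notes. Not given in the sources used here are the aligner, the annotation release and the treatment of reads with several matches. The smallest total of any feature was 21 counts, so rarer features may have been left out earlier.

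Counts of mature miRNAs were tested with edgeR 4.0.16 (limma 3.58.1, R 4.3.3): filterByExpr by group at its defaults, TMM scaling (factors 0.637 to 1.67), 1 quasi-likelihood model with a term per group over 20 libraries, two-sided tests and Benjamini-Hochberg adjustment over 850 miRNAs, threshold 0.05. SE is the log2 fold change over the root of the F statistic. Log2 ratios of counts (0.5 added) were compared by two-sided exact permutation tests, adjusted over 36. The script was tested on simulated data. Alternatives were DESeq2 1.42.0 and its size factors, no low-count filter, abundant miRNAs only, all features, only the 2 groups compared, library sizes without the top 5 miRNAs, the replicate block and leaving out each library.

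Named are all members, miRNAs of the table with a member's seed, the 5 most like the cluster, and the cell type lists beside the results they move with. Some arms are given by range. The members and lists were chosen with earlier results of these data known. No pair of libraries within a group was a duplicate (lowest chi-square per degree of freedom 81.0). Pairs from different groups were not checked for this.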

Additional observations from a re-analysis of the deposited data

Results flagged for a closer look

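In healthy skin the level of miR-96-5p in healthy 7 was 206.4 CPM, while the other 4 libraries lay between 109 and 122 CPM. The gap to the nearest library was 0.868 of the group's whole range, above Dixon's limit of 0.71 for 5 samples. It was the only one in 48 groups of values looked at, and chance alone flags about 1 in 20. Without healthy 7 the log2 fold change of miR-96-5p against healthy skin was -0.06 in cSCC, -0.46 in papilloma and -0.29 in hyperplastic skin, and none of these passed (adjusted p = 0.870, 0.173 and 0.829).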

How the results depend on the processing

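Of the calls in the report, the higher level of miR-182-5p and miR-183-5p in cSCC than in papilloma kept its direction under every alternative run. Counts of members called moved as follows. With abundant miRNAs only, 1 member passed in papilloma against healthy skin, 3 in cSCC against healthy skin and 3 in cSCC against hyperplastic skin. With all small RNA features these were 1, 3 and 2. With only the 2 groups compared, 2 passed in cSCC against healthy skin and 0 in cSCC against papilloma. In papilloma against hyperplastic skin 1 passed without a low-count filter, 1 in DESeq2 and 1 without the 5 most abundant miRNAs in the library sizes. The cause of these moves was not tested.

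The labels do not say whether the replicate numbers of the titles pair the samples. Of 17 pairs of same-numbered samples 2 correlated above 0.1 in their deviations from the group means (-0.156 to 0.208). Low correlations cannot exclude pairing, since samples of 1 mouse need not deviate together. With the replicate block 1 member passed in papilloma against healthy skin, 0 in cSCC against healthy skin, 1 in cSCC against papilloma and 0 across the 4 groups. The block turned the log2 fold change of miR-183-3p to -0.29 in papilloma and -0.17 in cSCC against hyperplastic skin, that of miR-96-5p to 0.11 in papilloma against hyperplastic skin, and that of miR-182-3p to -0.0576 in cSCC against hyperplastic skin.

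Leaving out 1 library at a time, the members called ranged from 1 to 3 in papilloma and 1 to 2 in cSCC against healthy skin, 0 to 2 in cSCC against papilloma, 0 to 1 in papilloma and 0 to 1 in cSCC against hyperplastic skin, and 1 to 4 across the 4 groups. These edgeR fits reran the filter and the scaling and tested 859 to 901 miRNAs. They thus differ from the main fit in more than the omitted library. Of the ratio tests, 0 to 1 passed for miR-96-5p to miR-182-5p, 0 to 1 for the arms of miR-182 and 0 to 3 for the cluster to epithelial miRNAs. Estimates that changed sign were, in hyperplastic against healthy skin, miR-183-5p (-0.17 to 0.10), miR-183-3p (-0.0558 to 0.48) and miR-96-3p (-0.40 to 0.26). In cSCC against papilloma they were miR-183-3p (-0.12 to 0.45) and miR-96-3p (-0.0758 to 0.40), and against hyperplastic skin miR-183-3p in papilloma (-0.0510 to 0.43), and miR-96-5p (-0.00674 to 0.28) and miR-182-3p (-0.12 to 0.52) in cSCC. The log2 ratio of miR-183-5p to miR-182-5p ran from -0.0411 to 0.0874 in cSCC against papilloma, that of the arms of miR-182 from -0.17 to 0.54 in cSCC against hyperplastic skin, and that of the arms of miR-183 from -0.40 to 0.13 in cSCC against healthy skin.

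Other settings turned further estimates. With abundant miRNAs only, miR-183-5p came to 0.32 and miR-96-5p to 0.0596 in papilloma against healthy skin, miR-96-5p to 0.44 in cSCC against healthy skin, and both to 0.20 and 0.37 in papilloma against hyperplastic skin. All features gave miR-96-5p 0.0224 in cSCC against healthy skin. Without a low-count filter miR-182-5p came to -0.0304 in cSCC against healthy skin, miR-183-3p to -0.24 in papilloma, and miR-96-5p to -0.22 and miR-182-3p to -0.13 in cSCC against hyperplastic skin. In hyperplastic against healthy skin DESeq2 size factors, DESeq2 and library sizes without the top 5 gave miR-183-5p -0.0324, -0.0324 and -0.0370, and miR-96-3p -0.00517, -0.00515 and -0.0110. The last setting gave miR-183-3p -0.0149 in papilloma against hyperplastic skin. Group medians turned the ratio of the arms of miR-183 to 0.11 in cSCC against healthy skin. The ratio to epithelial miRNAs turned to 0.0184 in hyperplastic against healthy skin with miR-205-5p alone, and to 0.0864 in papilloma against healthy and 0.20 against hyperplastic skin with the miR-200 family alone. For this ratio 3 tests passed with the miR-200 family alone and 3 with all arms of the members, each at the smallest p that the permutation test can give.

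At 4 to 38 counts per library, miR-182-3p and miR-96-3p give fold changes of little precision, and their low-count class did not scale with depth. The cSCC libraries spread more widely than the other groups in the abundant 5p arms miR-182-5p and miR-183-5p, which limits every comparison with them.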
